A study of Mus musculus with 16 samples.

Results

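Endothelial cells line blood and lymphatic vessels, and 36 genes by which they are recognised were followed in the thyroid of mice on a control chow diet (CD) or on a high-fat diet with sucrose water (HF+SD). The members are 29 genes of blood vessel endothelium, 4 of tip cells and 3 of lymphatic endothelium, taken by symbol from the 21640 genes in the count table. All 36 were found and all passed the filter on low counts at both time points. The mice were wild-type C57Bl/6J males placed on a diet at 8 weeks of age, and the whole thyroid of each was sequenced after 3 or 6 weeks on it. Each diet had 4 mice at each time point, 16 in all, named here by their labels. After 6 weeks they were M22, M43, M45 and M48 on the CD and M5, M18, M34 and M35 on the HF+SD. After 3 weeks they were M53, M54, M55 and M96 on the CD and M7, M19y, M20y and M31 on the HF+SD. Values per mouse are always given in these orders.

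Blood vessel endothelium is held together by adherens and tight junctions, faces the blood with a coat of sialomucins, and keeps its identity through transcription factors of the ETS, SoxF and bHLH families. In endocrine glands the capillaries are fenestrated, with pores spanned by diaphragms, and the thyroid follicles are wrapped in a dense net of them. A growing sprout is led by a tip cell, which responds to VEGF, carries the Notch ligand DLL4 and secretes products such as endocan and apelin. Lymphatic endothelium branches off from veins under PROX1 and depends on VEGFR3, while LYVE1 marks its initial capillaries. Outside lymphatics, PROX1 and LYVE1 also occur in other cells, PROX1 in skeletal muscle and LYVE1 in a subset of macrophages, and VEGFR3 is made by fenestrated blood capillaries too.

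Libraries held 30025256 to 48508653 counts. Levels are CPM, counts scaled to a library size to which TMM factors were applied (trimmed mean of M-values), and a difference between diets is a log2 fold change, HF+SD over CD, with its standard error (SE). Thyrocyte markers were present in the tissue, and their summed level differed between the diets. Summed over 9 genes they stood at 1914 to 3245 CPM on the CD and 4484 to 5280 CPM on the HF+SD at 6 weeks. At 3 weeks the sums were 3672 to 4396 CPM on the CD and 4626 to 5167 CPM on the HF+SD. By the edgeR test described below, at an adjusted p under 0.05, 4 of the 9 were higher at 6 weeks and 3 at 3 weeks. Of all genes, 12% and 9.07% were higher by that rule. Nkx2-1, Pax8, Foxe1, Hhex and Slc26a7 did not pass at 6 weeks. Among the CD libraries of 6 weeks, M43, M45 and M48 stood apart in skeletal muscle transcripts. A list of 30 muscle genes took 3.98%, 16.9% and 12.1% of the counts in M43, M45 and M48, 0.114% in M22, and 0.142% to 0.474% in the HF+SD libraries. At 3 weeks the share was 0.0129% to 0.0260% in all 8 libraries. Log2 fold changes at 6 weeks are therefore also given without those 3 CD libraries for some members.

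The promoters of 3 members show what stands upstream of the transcripts with the largest difference at 6 weeks in each class, Eng for blood, Apln for tip cells and Flt4 for lymphatics. Each stretch holds 250 bases before the transcription start and 50 after, is read 5′ to 3′ on the gene's strand, and comes from RefSeq on GRCm38.p6, not the build of the counts. Capitals mark the core letters of ETS sites, GGAA or its reverse complement TTCC.
Eng, chr2:32646345-32646644, plus strand: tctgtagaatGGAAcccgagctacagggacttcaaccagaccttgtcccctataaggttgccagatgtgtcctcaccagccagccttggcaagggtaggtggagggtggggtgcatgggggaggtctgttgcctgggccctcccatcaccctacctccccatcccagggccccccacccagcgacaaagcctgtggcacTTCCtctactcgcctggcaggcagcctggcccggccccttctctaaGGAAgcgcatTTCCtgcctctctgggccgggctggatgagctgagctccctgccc
Apln, chrX:48034804-48035103, minus strand: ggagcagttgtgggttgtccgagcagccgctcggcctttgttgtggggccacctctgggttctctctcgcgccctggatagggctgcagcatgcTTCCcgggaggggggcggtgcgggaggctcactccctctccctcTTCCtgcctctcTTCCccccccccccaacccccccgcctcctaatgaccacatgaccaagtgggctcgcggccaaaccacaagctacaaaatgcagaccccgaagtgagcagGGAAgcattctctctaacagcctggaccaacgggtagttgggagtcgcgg
Flt4, chr11:49609429-49609728, plus strand: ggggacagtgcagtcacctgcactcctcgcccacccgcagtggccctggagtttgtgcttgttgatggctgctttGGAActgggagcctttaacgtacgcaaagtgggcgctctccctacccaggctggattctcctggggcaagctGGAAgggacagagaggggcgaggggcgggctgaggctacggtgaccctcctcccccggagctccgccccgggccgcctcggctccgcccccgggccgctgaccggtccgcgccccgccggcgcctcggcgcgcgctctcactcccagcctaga
The Eng and Apln stretches hold 4 such cores each, and the Flt4 stretch holds 2. A promoter entry was found for 17 of the 36 members. GGAA on either strand was in 94.1% of these 17 and in 95.9% of all 27025 promoters of the same length, so it is near universal in windows of this size. CAGGAA, which contains GGAA, was in 52.9% of the members' promoters against 30.4% of all. ACAAT, the core letters of SOX sites, was in 23.5% against 31.6%, and CAGATG, an E-box of the kind bound by TAL1, in 35.3% against 17.2%. These matches describe the letters only.

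After 6 weeks, transcripts of blood vessel endothelium were higher on the HF+SD, tip-cell transcripts were higher by less apart from Apln, and the lymphatic genes went different ways. By edgeR's quasi-likelihood test with Benjamini-Hochberg adjustment over all genes, 31 of 36 members were higher and 1, Prox1, was lower at an adjusted p under 0.05. Cldn5, Sox7, Lyl1 and Lyve1 did not pass. Of 18249 genes tested, 12% were higher by that rule and 9.55% were lower. With a log2 fold change above 1 as a second condition, 28 members remained, against 6.64% of all genes. Over the 36 members the median log2 fold change was 1.48, or 2.79-fold, where the median of all genes was -0.011. In 30 members the lowest HF+SD mouse exceeded the highest CD mouse, which held for 14% of all genes, and in Prox1 every HF+SD mouse was below. The share of all genes with every HF+SD mouse below was not determined at either time point.

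**Figure D1:**
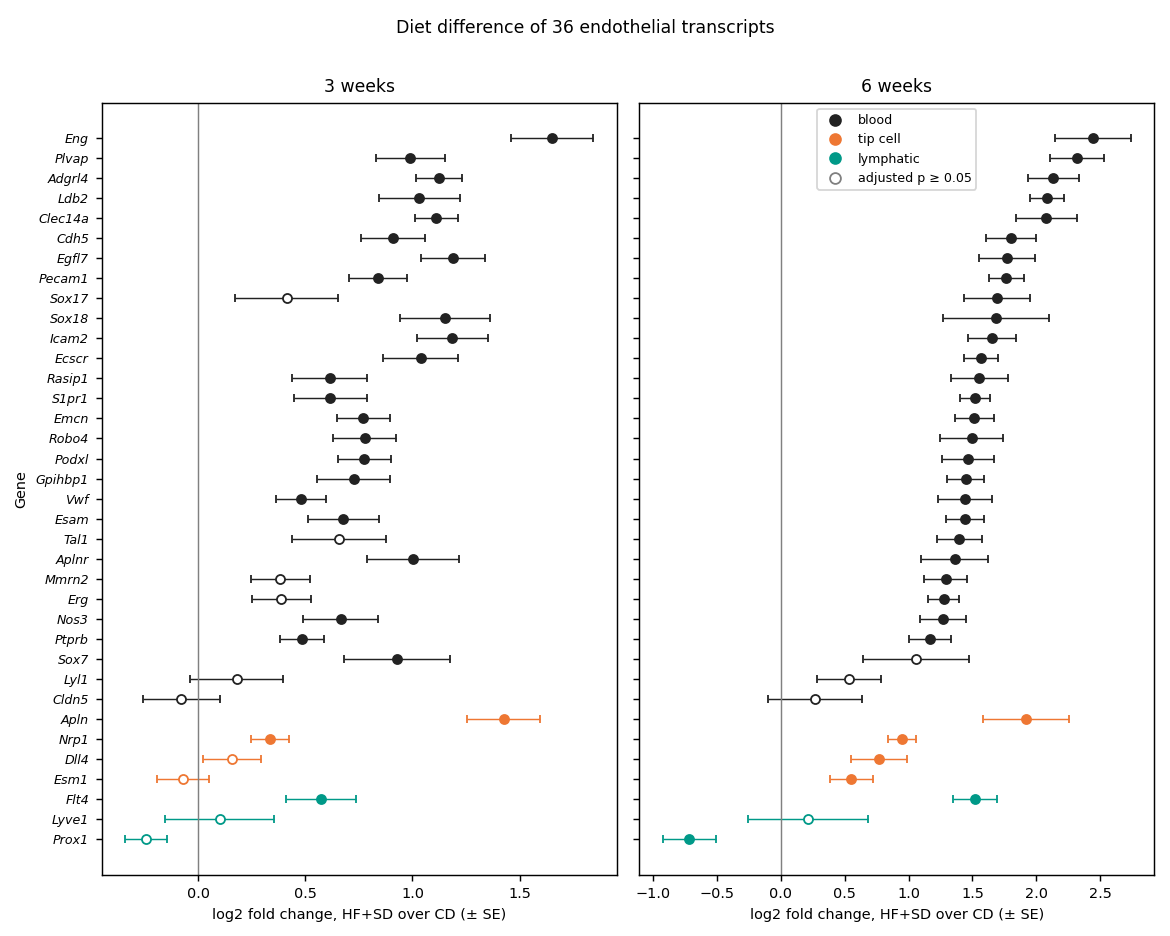
Log2 fold change, HF+SD over CD, with its SE for each of the 36 members at 3 weeks (left) and 6 weeks (right), on axes of different range. Colours mark blood, tip-cell and lymphatic members and open circles an adjusted p of 0.05 or more; at 6 weeks nearly all blood members lie above 1, while Esm1, Dll4, Nrp1, Lyve1 and Prox1 lie below it.

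Among the 14 junction and surface genes of blood endothelium, 13 were higher after 6 weeks (median log2 fold change 1.54). Pecam1 (ENSMUSG00000020717.20), which encodes the junctional adhesion molecule CD31, stood at 93.3, 104, 84.6 and 78.4 CPM on the CD and 308, 326, 313 and 283 CPM on the HF+SD. The means were 89.95 ± 10.9 and 308 ± 18.4 CPM (SD, n = 4), 3.4-fold apart (log2 fold change 1.77, SE 0.14, adjusted p = 0.00016). No CD mouse came near the lowest HF+SD mouse, M35. Cdh5, VE-cadherin of the adherens junctions, was at 16.4, 11.3, 15.4 and 21 CPM on the CD and 49.5, 60.03, 51 and 64.5 CPM on the HF+SD (log2 fold change 1.80, SE 0.20, adjusted p = 0.000497). Both junction genes thus separated the diets completely. Esam, an adhesion molecule of endothelial tight junctions, was at 28.3, 19.9, 20.2 and 25 CPM on the CD and 69.9, 59, 58.2 and 67.5 CPM on the HF+SD, 2.71-fold higher. Icam2, an adhesion molecule of resting endothelium, was at 10.9, 7.78, 7.04 and 8.87 CPM on the CD and 22, 33.7, 25.7 and 27.6 CPM on the HF+SD, 3.14-fold higher. Cldn5, the claudin of endothelial tight junctions, was the only gene of this group that did not pass, with 1.55, 3.73, 4.23 and 3.84 CPM on the CD and 2.76, 3.09, 3.8 and 6.56 CPM on the HF+SD. Its groups overlapped, with M22 lowest and M35 highest of all (log2 fold change 0.27, 95% interval -0.56 to 1.10, adjusted p = 0.633).

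The luminal sialomucins and the receptors of the vessel surface were higher as well. Podxl, podocalyxin, was at 96.2, 55.4, 53.6 and 73.8 CPM on the CD and 172, 199.9, 182 and 218 CPM on the HF+SD, and Emcn, endomucin of capillaries and veins, at 104, 91.5, 68.2 and 84.8 CPM on the CD and 242, 235, 264 and 261 CPM on the HF+SD. Emcn was 2.86-fold higher on the HF+SD (log2 fold change 1.52, SE 0.15, adjusted p = 0.000386) and Podxl 2.75-fold. Eng (ENSMUSG00000026814.17), whose promoter is shown above, encodes endoglin, a co-receptor for BMP9 and TGF-beta. It had 37.1, 15.8, 21.8 and 34.8 CPM on the CD and 112, 164, 129 and 192 CPM on the HF+SD, and its means of 27.4 ± 10.2 and 149 ± 35.8 CPM (SD, n = 4) differed 5.43-fold, the largest difference of the 36 (log2 fold change 2.44, SE 0.30, adjusted p = 0.000919). All 4 HF+SD mice lay far above the highest CD mouse, M22. Adgrl4, an adhesion G protein-coupled receptor also called ELTD1, was at 55.1, 51.2, 35.3 and 40.2 CPM on the CD and 195, 231, 227 and 149 CPM on the HF+SD, 4.38-fold higher. Clec14a, a C-type lectin-like protein of the endothelial surface, was at 28.3, 17.9, 18.6 and 21.8 CPM on the CD and 57.4, 112, 103 and 95.1 CPM on the HF+SD, 4.22-fold higher, with M5 the lowest of its diet. Robo4, the endothelial roundabout receptor, was at 13.9, 7.1, 8.82 and 14.3 CPM on the CD and 29, 28.4, 28.1 and 39.6 CPM on the HF+SD, 2.82-fold higher. The adjusted p of these 3 receptors was 0.000286, 0.000643 and 0.00396. Ptprb, the phosphatase VE-PTP that acts on TIE2 and VE-cadherin, was at 111, 80.5, 73.6 and 76.3 CPM on the CD and 187, 221, 179 and 182 CPM on the HF+SD and showed the smallest passing difference of the blood members, 2.24-fold. Ecscr, an endothelial cell surface protein, was at 11.4, 9.51, 8.5 and 9.18 CPM on the CD and 26.8, 31.3, 29 and 28 CPM on the HF+SD. S1pr1, the receptor for sphingosine 1-phosphate, was at 14.6, 16.5, 15.7 and 16.5 CPM on the CD and 49.1, 49.4, 41.7 and 42.3 CPM on the HF+SD. Both differed by just under 3-fold, Ecscr 2.96-fold and S1pr1 2.87-fold, and S1pr1 varied little among the CD mice.

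Genes of capillary specialization were all higher after 6 weeks, 3 of 3. Plvap (ENSMUSG00000034845.7), the protein of the diaphragms that span fenestrae, was at 34.8, 21.8, 19.9 and 32.5 CPM on the CD and 118, 152, 123 and 152 CPM on the HF+SD. Means were 27.2 ± 7.49 and 136 ± 18.5 CPM (SD, n = 4), a 4.98-fold difference (log2 fold change 2.32, SE 0.21, adjusted p = 0.000259) and the largest after that of Eng. Gpihbp1, which carries lipoprotein lipase to the capillary lumen, was at 23.8, 22.8, 16.4 and 20.7 CPM on the CD and 55.8, 66.5, 55.1 and 52.1 CPM on the HF+SD, 2.72-fold higher. Aplnr, the receptor of apelin, was at 4.34, 4.73, 7.24 and 8.81 CPM on the CD and 14.9, 15.3, 13.5 and 21.1 CPM on the HF+SD, 2.57-fold higher, with M35 apart from the other HF+SD mice. None of the 3 overlapped between the diets.

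The 5 secreted and intracellular proteins of endothelium all passed. Vwf, von Willebrand factor of endothelial storage granules, was at 16.6, 12.8, 12.8 and 18 CPM on the CD and 32, 39.6, 35.3 and 57.8 CPM on the HF+SD (log2 fold change 1.44, SE 0.21, adjusted p = 0.00229). Nos3, endothelial nitric oxide synthase, was at 9.68, 6.3, 6.53 and 7.0 CPM on the CD and 18, 18.9, 14.8 and 19.7 CPM on the HF+SD (log2 fold change 1.27, SE 0.18, adjusted p = 0.0019). In both, the lowest HF+SD mouse stood above the highest CD mouse, M48 for Vwf and M22 for Nos3. Egfl7, a secreted endothelial protein and host gene of miR-126, was at 47.9, 24.6, 29.6 and 35.5 CPM on the CD and 108, 107, 109 and 147 CPM on the HF+SD, 3.4-fold higher. Mmrn2, a matrix glycoprotein that binds CLEC14A, was at 12.1, 8.63, 8.43 and 12 CPM on the CD and 23.8, 26.1, 22.8 and 28.5 CPM on the HF+SD, 2.45-fold higher. Rasip1, a RAS-interacting protein needed for vessel lumens, was at 8.16, 4.3, 5.17 and 6.18 CPM on the CD and 18.8, 16.9, 13.8 and 20.9 CPM on the HF+SD, 2.94-fold higher. M35 was highest of the HF+SD mice in all 5 genes. Vwf is also made by megakaryocytes. In a list of 8 erythroid and platelet genes 3 were higher, against 12% of all genes. The list had a summed level of 195.1 to 420.0 CPM on the CD and 428.3 to 597.2 CPM on the HF+SD. The part of such cells in Vwf was not tested.

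Transcription factors divided, with 5 of 7 higher after 6 weeks. Erg, the ETS factor of mature endothelium, was at 10.3, 10.8, 9.34 and 10.4 CPM on the CD and 23.1, 27.2, 24.2 and 24.8 CPM on the HF+SD and was the steadiest of the factors within each diet (2.42-fold, log2 fold change 1.28, SE 0.12, adjusted p = 0.000288). Ldb2, a LIM domain-binding cofactor, was at 8.51, 7.56, 6.69 and 8.16 CPM on the CD and 31.8, 37.5, 31.1 and 31.3 CPM on the HF+SD, 4.24-fold higher, with M18 apart from the other HF+SD mice (adjusted p = 0.000103 by edgeR). Both had a narrow spread, and neither overlapped. The 3 SoxF factors were less even. Sox17 was at 4.57, 2.75, 4.04 and 4.35 CPM on the CD and 9.53, 13.4, 10.1 and 18 CPM on the HF+SD (log2 fold change 1.69, SE 0.26, adjusted p = 0.00253). Sox18 was at 9.77, 3.85, 9.34 and 15.4 CPM on the CD and 23, 27.1, 22.8 and 51 CPM on the HF+SD (log2 fold change 1.68, SE 0.42, adjusted p = 0.0211). Sox7 was at 2.64, 1.25, 2.97 and 4.24 CPM on the CD and 4.35, 4.6, 4.06 and 10.2 CPM on the HF+SD, and its log2 fold change of 1.06 did not pass (95% interval 0.12 to 1.99, adjusted p = 0.0977). M35 held the highest level of all 3 SoxF genes and M43 the lowest. Without M45 or without M35, Sox18 no longer passed, with adjusted p = 0.0529 and 0.0569 by edgeR and log2 fold changes of 1.65 and 1.34. Tal1, the bHLH factor SCL of blood and endothelium, was at 2.79, 2.07, 2.07 and 2.4 CPM on the CD and 6.64, 5.57, 5.54 and 6.99 CPM on the HF+SD, 2.64-fold higher. Its relative Lyl1 was at 1.95, 1.68, 3.1 and 2.6 CPM on the CD and 2.97, 3.81, 2.64 and 4.16 CPM on the HF+SD and did not pass, with a log2 fold change of 0.53 (95% interval -0.027 to 1.10). Both bHLH factors are also made by blood-forming cells, which bulk tissue does not separate.

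All 4 tip-cell members passed after 6 weeks, their median log2 fold change being 0.86. Apln (ENSMUSG00000037010.8), the peptide ligand of APLNR, was at 1.7, 1.55, 1.13 and 1.75 CPM on the CD and 5.36, 2.83, 6.06 and 9.03 CPM on the HF+SD. Its means of 1.53 ± 0.28 and 5.82 ± 2.55 CPM (SD, n = 4) differed 3.78-fold (log2 fold change 1.92, SE 0.34, adjusted p = 0.00525). The HF+SD mice spread widely, M18 lowest and M35 highest, but none reached down to the CD mice. Nrp1, neuropilin 1, a co-receptor for VEGF and semaphorins, was at 58.1, 60.1, 51.8 and 59.6 CPM on the CD and 118, 113, 113 and 103 CPM on the HF+SD, 1.93-fold higher with a narrow spread (log2 fold change 0.95, SE 0.11, adjusted p = 0.00072). Esm1 (ENSMUSG00000042379.9), which encodes the secreted proteoglycan endocan, was at 55.7, 40.04, 32.3 and 37 CPM on the CD and 61, 55.2, 63.2 and 64.1 CPM on the HF+SD. Here the groups overlapped, since M22 stood above M18, and the difference was 1.47-fold (log2 fold change 0.55, SE 0.17, adjusted p = 0.0449, exact two-sided permutation p = 0.0571). Dll4 (ENSMUSG00000027314.7), the Notch ligand of tip cells, was at 8.28, 4.51, 5.69 and 5.96 CPM on the CD and 11.1, 8.57, 9.28 and 12.9 CPM on the HF+SD, without overlap but with M22 just under M18 (1.7-fold, log2 fold change 0.77, SE 0.22, adjusted p = 0.0363). Both Esm1 and Dll4 lost the call when any 1 of 7 mice was left out, M22 being the exception, with adjusted p of 0.0759 to 0.119 and 0.0554 to 0.0912 over those fits.

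**Figure D2:**
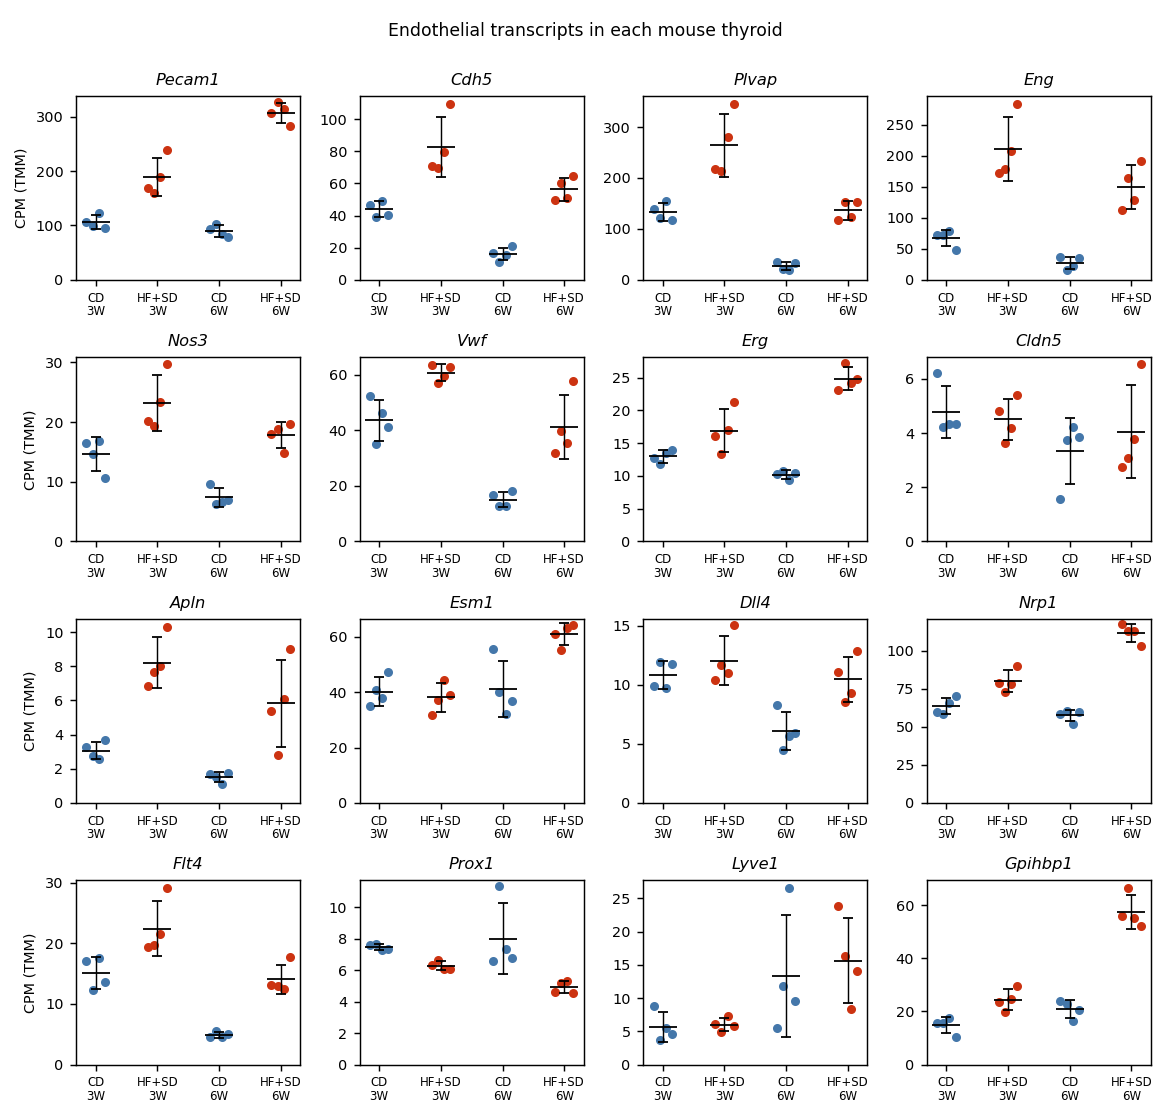
Level in CPM of 16 of the 36 members in each mouse (points) with the group mean and SD (lines), CD in blue and HF+SD in red, at 3 weeks (3W) and 6 weeks (6W). Each axis starts at 0; Pecam1, Cdh5, Plvap, Eng and Nrp1 separate the diets at both times, while Cldn5 and Lyve1 overlap and the Prox1 points of the HF+SD lie below those of the CD.

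The 3 lymphatic genes moved apart from each other after 6 weeks. Flt4 (ENSMUSG00000020357.4), the receptor VEGFR3 for VEGF-C and VEGF-D, was at 4.51, 5.53, 4.49 and 4.97 CPM on the CD and 13.2, 12.9, 12.4 and 17.7 CPM on the HF+SD. Its means of 4.88 ± 0.489 and 14.1 ± 2.44 CPM (SD, n = 4) differed 2.86-fold, as much as those of the blood members (log2 fold change 1.52, SE 0.17, adjusted p = 0.000626). Prox1 (ENSMUSG00000010175.14), the homeobox factor of lymphatic fate, was at 6.55, 11.4, 7.33 and 6.75 CPM on the CD and 4.59, 5.2, 5.28 and 4.57 CPM on the HF+SD. All 4 HF+SD mice were below all CD mice, of which M43 stood far above the rest, and the fitted HF+SD level was 0.61 of the CD level (log2 fold change -0.71, SE 0.21, adjusted p = 0.0391). The Prox1 call was lost when any 1 of 7 mice was left out, again all but M22, with adjusted p of 0.0519 to 0.0935. Lyve1 (ENSMUSG00000030787.5), the hyaluronan receptor of lymphatic endothelium, was at 5.46, 11.8, 26.6 and 9.6 CPM on the CD and 23.8, 16.3, 8.36 and 14.1 CPM on the HF+SD. It ranged more widely within a diet than between the diets, M45 being highest and M22 lowest on the CD, and its log2 fold change was 0.22 (95% interval -0.84 to 1.27, adjusted p = 0.775).

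At 6 weeks muscle transcripts were high in M43, M45 and M48 but not in M22 of the same diet, while macrophage transcripts differed between the diets. A fit without the 3 CD libraries rich in muscle counts has 5 libraries and leaves M22 alone on the CD. It assumes that M22 varies like the HF+SD mice, so only log2 fold changes are given. Those of Apln, Sox18, Sox17 and Vwf were 1.77, 1.66, 1.47 and 1.30. Tal1, Rasip1, Nos3 and Ptprb stood at 1.14, 1.10, 0.87 and 0.79. Esm1, Dll4 and Prox1 were at 0.12, 0.33 and -0.42. Pecam1 and Eng stood at 1.72 and 2.00, and the median over the members was 1.30. Cldn5 and Lyve1 moved the other way, to 1.37 and 1.51, M22 being the lowest CD mouse for both. With the muscle score as a covariate, 28 members were higher, Sox18, Esm1 and Dll4 no longer passed, and Prox1 stood at a log2 difference of -0.66 (adjusted p = 0.161). The share of all genes called with the covariate was not determined. Sox18 was at 1.83 in that fit, Cldn5 at 1.02 (adjusted p = 0.161) and Lyve1 at 1.28 (adjusted p = 0.0873). Leaving out those libraries thus moved the members' median log2 fold change from 1.48 to 1.30. The latter value rests on M22 as the only CD mouse. The covariate fit, which kept every library, gave a members' median of 1.35. Esm1, Dll4 and Prox1 had smaller differences in both fits than with all libraries and no covariate, while Sox18 stayed near its 1.68. In a list of 10 macrophage genes 9 were called higher at 6 weeks, against 12% of all genes. The list had a summed level of 145.6 to 187.9 CPM on the CD and 270.3 to 353.6 CPM on the HF+SD. The part of macrophages in the Lyve1 level was not tested. In bulk tissue, more endothelial cells and more RNA per endothelial cell cannot be told apart.

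After 3 weeks, 26 of the 36 members were higher on the HF+SD and none was lower, while 9.07% of the 17238 genes tested were higher and 5.78% lower. At an unadjusted p under 0.05, edgeR gave 1 member lower, Prox1. By an adjusted p under 0.05, DESeq2 called 27 higher and 0 lower. With a log2 fold change above 1, 10 members remained, against 3.25% of all genes. The median log2 fold change over the members was 0.70, or 1.63-fold, and the median of all genes was -0.0083. In 26 members every HF+SD mouse stood above every CD mouse, against 12.7% of all genes. On the HF+SD, M31 was highest in 31 of the 36 members and M19y lowest in 25. Without M31 or without M20y, 17 members were higher. The calls of Esam, S1pr1, Gpihbp1, Vwf, Nos3, Rasip1, Sox7, Nrp1 and Flt4 were each lost without any 1 of 2 to 7 mice.

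Of the junction and surface genes, 13 of 14 were higher after 3 weeks (median log2 fold change 0.81), and again Cldn5 was the exception. Pecam1 was at 106, 98.3, 124 and 96 CPM on the CD and 169, 160.4, 189 and 239 CPM on the HF+SD, 1.79-fold higher (log2 fold change 0.84, SE 0.14, adjusted p = 0.00369). Cdh5 was at 46.8, 39.2, 49.3 and 40.6 CPM on the CD and 71.1, 69.7, 79.4 and 109.6 CPM on the HF+SD, 1.88-fold higher, and Emcn was at 63.6, 59.1, 64.1 and 52 CPM on the CD and 84.2, 90.4, 112 and 119.6 CPM on the HF+SD, 1.71-fold higher. The junction genes separated the diets as they did at 6 weeks, with smaller differences. Eng was at 71.9, 71.5, 78.1 and 47.6 CPM on the CD and 172, 179, 208 and 283 CPM on the HF+SD, again the largest difference of the members (3.14-fold, log2 fold change 1.65, SE 0.19, adjusted p = 0.000778). Icam2 was at 5.71, 5.99, 6.45 and 4.33 CPM on the CD and 11.7, 10.2, 13.9 and 15.2 CPM on the HF+SD, 2.28-fold higher. Adgrl4 was at 41.1, 40.4, 52 and 43.5 CPM on the CD and 89.2, 87.5, 98.5 and 109 CPM on the HF+SD, Clec14a at 24.4, 25, 23.9 and 25.1 CPM on the CD and 47.6, 45.8, 56.5 and 62.1 CPM on the HF+SD, and they were 2.18-fold and 2.16-fold higher. These surface receptors did not overlap between diets, and Clec14a was nearly constant over the CD mice. Ecscr was at 5.74, 5.73, 6.5 and 4.14 CPM on the CD and 9.16, 10.8, 11.1 and 14.2 CPM on the HF+SD, 2.05-fold higher. Podxl was at 147, 141, 164 and 135 CPM on the CD and 208, 224, 264 and 307 CPM on the HF+SD and Robo4 at 21.8, 18.4, 19.4 and 19.1 CPM on the CD and 28.8, 27, 34.7 and 44 CPM on the HF+SD, both 1.71-fold higher. The remaining differences of this group were the smallest that passed. Esam was at 27.2, 22.1, 35.8 and 27.4 CPM on the CD and 40.01, 36.4, 47.4 and 55.7 CPM on the HF+SD, S1pr1 at 26.7, 21.7, 29.6 and 16.9 CPM on the CD and 31, 33.5, 41.7 and 39 CPM on the HF+SD and Ptprb at 99.3, 82.6, 112 and 91.1 CPM on the CD and 129.9, 127, 129.6 and 150.0 CPM on the HF+SD, with log2 fold changes of 0.68, 0.62 and 0.48. Cldn5 was at 6.23, 4.23, 4.35 and 4.33 CPM on the CD and 4.82, 3.65, 4.2 and 5.39 CPM on the HF+SD, with M53 apart from the other CD mice, and did not differ beyond error (log2 fold change -0.078, 95% interval -0.48 to 0.32).

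The capillary genes were all higher after 3 weeks too. Plvap was at 139, 122, 156 and 118 CPM on the CD and 218, 214, 281 and 346 CPM on the HF+SD, 1.99-fold higher (log2 fold change 0.99, SE 0.16, adjusted p = 0.00389). Gpihbp1 was at 15.5, 15.8, 17.5 and 10.5 CPM on the CD and 23.4, 19.9, 24.7 and 29.6 CPM on the HF+SD and Aplnr at 6.95, 10.3, 8.16 and 7.51 CPM on the CD and 13.4, 13.5, 14.2 and 24.4 CPM on the HF+SD, 1.65-fold and 2.0-fold higher. M31 was highest in all 3. Of the secreted and intracellular proteins 4 of 5 passed. Vwf was at 52.4, 35.1, 46.1 and 41.1 CPM on the CD and 63.6, 57.1, 59.6 and 62.8 CPM on the HF+SD (log2 fold change 0.48, SE 0.12, adjusted p = 0.0232) and Nos3 at 16.4, 14.6, 16.9 and 10.6 CPM on the CD and 20.2, 19.3, 23.3 and 29.7 CPM on the HF+SD (log2 fold change 0.67, SE 0.18, adjusted p = 0.0317). Egfl7 was at 34.7, 34.7, 24.9 and 31.2 CPM on the CD and 62.3, 60.8, 71.2 and 91.3 CPM on the HF+SD, 2.28-fold higher, and Rasip1 at 13, 12.7, 15.8 and 12.7 CPM on the CD and 17.9, 16.3, 19.6 and 29 CPM on the HF+SD, 1.53-fold higher. Mmrn2 overlapped between the diets and did not pass, with 30, 27.3, 29.99 and 26.6 CPM on the CD and 33.4, 29, 39 and 46.7 CPM on the HF+SD (adjusted p = 0.0863 by edgeR).

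Only 3 of the 7 transcription factors passed at 3 weeks, Sox7, Sox18 and Ldb2. Sox18 was at 22.3, 24.6, 27.9 and 22.8 CPM on the CD and 49.6, 35.2, 52.2 and 79.2 CPM on the HF+SD (log2 fold change 1.15, SE 0.21, adjusted p = 0.00641), Sox7 at 3.14, 2.64, 3.86 and 3.37 CPM on the CD and 6.11, 4.24, 4.98 and 9.37 CPM on the HF+SD (log2 fold change 0.93, SE 0.25, adjusted p = 0.0327) and Ldb2 at 10.1, 10.3, 12.2 and 7.22 CPM on the CD and 17.8, 16.5, 20.3 and 26.5 CPM on the HF+SD (log2 fold change 1.03, SE 0.19, adjusted p = 0.00639). The Sox7 call was lost when any 1 of 6 mice was left out, all but M55 and M19y, with adjusted p of 0.051 to 0.0771, and its difference was no larger than at 6 weeks. Sox17 overlapped, with 6.16, 4.63, 8.55 and 8.82 CPM on the CD and 7.55, 7.53, 9.39 and 12.9 CPM on the HF+SD (log2 fold change 0.41, 95% interval -0.12 to 0.95). Erg was at 12.7, 11.8, 13.5 and 13.9 CPM on the CD and 16, 13.4, 17 and 21.3 CPM on the HF+SD, M19y lying among the CD mice, and its log2 fold change of 0.39 had an adjusted p of 0.085 by edgeR. Tal1 and Lyl1 did not pass either, with log2 fold changes of 0.66 and 0.18. M31 held the highest level of all 7 factors.

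Among the tip-cell genes, Apln and Nrp1 passed at 3 weeks and Esm1 and Dll4 did not. Apln was at 3.26, 2.75, 2.58 and 3.66 CPM on the CD and 6.86, 7.68, 8.0 and 10.3 CPM on the HF+SD, 2.69-fold higher (log2 fold change 1.43, SE 0.17, adjusted p = 0.000838). The lowest HF+SD mouse, M7, stood well above the highest CD mouse, M96. Nrp1 was at 59.8, 58.6, 65.4 and 69.9 CPM on the CD and 79, 72.6, 78 and 89.8 CPM on the HF+SD, 1.26-fold higher (log2 fold change 0.34, SE 0.089, adjusted p = 0.0326). Without any 1 of 5 mice, all but M55, M96 and M19y, Nrp1 no longer passed, with adjusted p of 0.0677 to 0.0929. Esm1 was at 35.2, 40.7, 37.8 and 47.4 CPM on the CD and 31.7, 37.4, 44.6 and 39.1 CPM on the HF+SD, its groups overlapping fully, with a log2 fold change of -0.07 (95% interval -0.34 to 0.20). Dll4 was at 9.89, 11.9, 9.75 and 11.8 CPM on the CD and 10.4, 11.7, 11 and 15.1 CPM on the HF+SD, with M31 alone above the CD mice (log2 fold change 0.16, 95% interval -0.14 to 0.46). For both genes the upper end of the interval lies under the difference of most blood members.

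Among the lymphatic genes, Flt4 was at 17, 12.2, 17.6 and 13.5 CPM on the CD and 19.3, 19.7, 21.5 and 29.1 CPM on the HF+SD after 3 weeks, 1.49-fold higher (log2 fold change 0.57, SE 0.16, adjusted p = 0.0435). This call was lost without any 1 of 7 mice, all but M55. Prox1 was at 7.57, 7.66, 7.27 and 7.32 CPM on the CD and 6.32, 6.66, 6.09 and 6.05 CPM on the HF+SD. All HF+SD mice were below all CD mice, as at 6 weeks, but the difference was small and did not pass (log2 fold change -0.24, SE 0.10, adjusted p = 0.128; exact two-sided permutation p = 0.0286, the smallest that 4 against 4 mice allow). Lyve1 was at 8.73, 3.63, 5.55 and 4.54 CPM on the CD and 6.16, 4.87, 7.25 and 5.75 CPM on the HF+SD, overlapping, with a log2 fold change of 0.10 (95% interval -0.47 to 0.67). Muscle counts were near absent at 3 weeks, and the macrophage list had none of 10 genes called by edgeR, with a summed level of 136.4 to 167.2 CPM on the CD and 139.1 to 202.7 CPM on the HF+SD.

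Whether the diet difference itself changed between 3 and 6 weeks was tested by the interaction of diet and time over all 16 libraries. In 35 of 36 members the log2 fold change was larger at 6 weeks, by a median of 0.66, against 51.8% of the 17024 genes tested at both times. Called higher at both times were 25 members, against 5.67% of those genes. By edgeR 0 members passed the adjusted test of this difference, against 0.0792% of 18929 genes, although 23 had an unadjusted p under 0.05, 22 of them with the larger difference at 6 weeks, against 22.3% and 9.35% of all genes. DESeq2 called 18, all larger at 6 weeks, against 4.85% of all genes in that direction. Pecam1 came nearest, with a difference of 0.87 between its log2 fold changes (SE 0.18, adjusted p = 0.0512), and Erg followed with 0.83 (SE 0.18, adjusted p = 0.0524). Plvap had 1.27 (SE 0.28, adjusted p = 0.0592) and Nrp1 0.56 (SE 0.13, adjusted p = 0.0602). Without M22, which leaves only the CD libraries rich in muscle counts at 6 weeks, 19 members passed, and without M43, 8 did. The shares of all genes passing without M22 or without M43 were not determined. Muscle genes took 3.98% to 16.9% of the counts in M43, M45 and M48 and at most 0.0260% in any library of 3 weeks. The part of this imbalance in the interaction was not tested. Library names carry a different prefix at each time point, so levels were not compared between the time points. A difference between the library sets cancels in the interaction only if it acts alike on both diets.

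To ask which members differed from the general endothelial difference, library sizes were replaced by the summed counts of 8 other endothelial genes, Tie1, Tek, Myct1, Cyyr1, Shank3, Arap3, She and Bcl6b. These encode the angiopoietin receptors and other proteins enriched in endothelium, and all 8 were higher at 6 weeks (median log2 fold change 1.62), while at 3 weeks 6 of 8 passed and Shank3 and Bcl6b did not (median 0.69). Tek, a reference gene itself, was below their sum at 6 weeks (log2 -0.51, adjusted p = 0.0123), so differences of that size also occurred within the reference. On this scale 5 members were higher and 8 lower after 6 weeks. Of all genes 1.36% were higher and 90.2% lower, since most genes of the tissue were not raised with the endothelium, so a lower call is the usual state of a gene here. For the other members the difference from the reference did not pass.

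The genes that exceeded the reference were Eng, Plvap, Adgrl4, Clec14a and Ldb2. Eng stood 1.87-fold above it (log2 0.91, SE 0.23, adjusted p = 0.00431), Plvap 1.71-fold (log2 0.77, SE 0.16, adjusted p = 0.00123), and the other 3 between 1.44-fold and 1.5-fold. Those that fell short of it among blood members were Cldn5 (log2 -1.35), Lyl1 (-1.05) and Ptprb (-0.38). Tip-cell genes were mostly short of it. Esm1 was at log2 -0.99 (SE 0.15, adjusted p = 0.000138), Dll4 at -0.77 (SE 0.18, adjusted p = 0.00224) and Nrp1 at -0.62 (SE 0.15, adjusted p = 0.00274), while Apln was at 0.36 (95% interval -0.37 to 1.08). Among lymphatic genes, Flt4 kept pace with the reference at log2 -0.066 (95% interval -0.49 to 0.36). Prox1 was at log2 -2.31 (SE 0.27, adjusted p = 3.65e-05) and Lyve1 at -1.41 (SE 0.51, adjusted p = 0.0239), the latter lost without M45, M34 or M35. The median of all genes on this scale was -1.57, so Esm1, Dll4, Nrp1, Cldn5, Lyl1 and Lyve1 lay between it and the reference and Prox1 below both.

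After 3 weeks, 7 members were above the reference and 4 below it, against 2.23% and 64.1% of all genes. Above it were Eng (log2 0.98, SE 0.16), Icam2 (0.52), Egfl7 (0.49), Adgrl4 (0.46), Sox18 (0.45), Clec14a (0.43) and, among tip-cell genes, Apln (0.73, SE 0.23, adjusted p = 0.00916). Below it were Cldn5 (-0.75), Esm1 (-0.75, SE 0.18, adjusted p = 0.00194), Dll4 (-0.53, SE 0.20, adjusted p = 0.0232) and Prox1 (-0.90, SE 0.21, adjusted p = 0.0016). The median of all genes was -0.67 there, close to the values of Cldn5 and Esm1. Eng, Adgrl4 and Clec14a were thus above the reference at both times, and Cldn5, Esm1, Dll4 and Prox1 below it at both. Without M53, M7 or M20y in turn, 6 or 7 members were called at 3 weeks in place of 11.

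**Figure D3:**
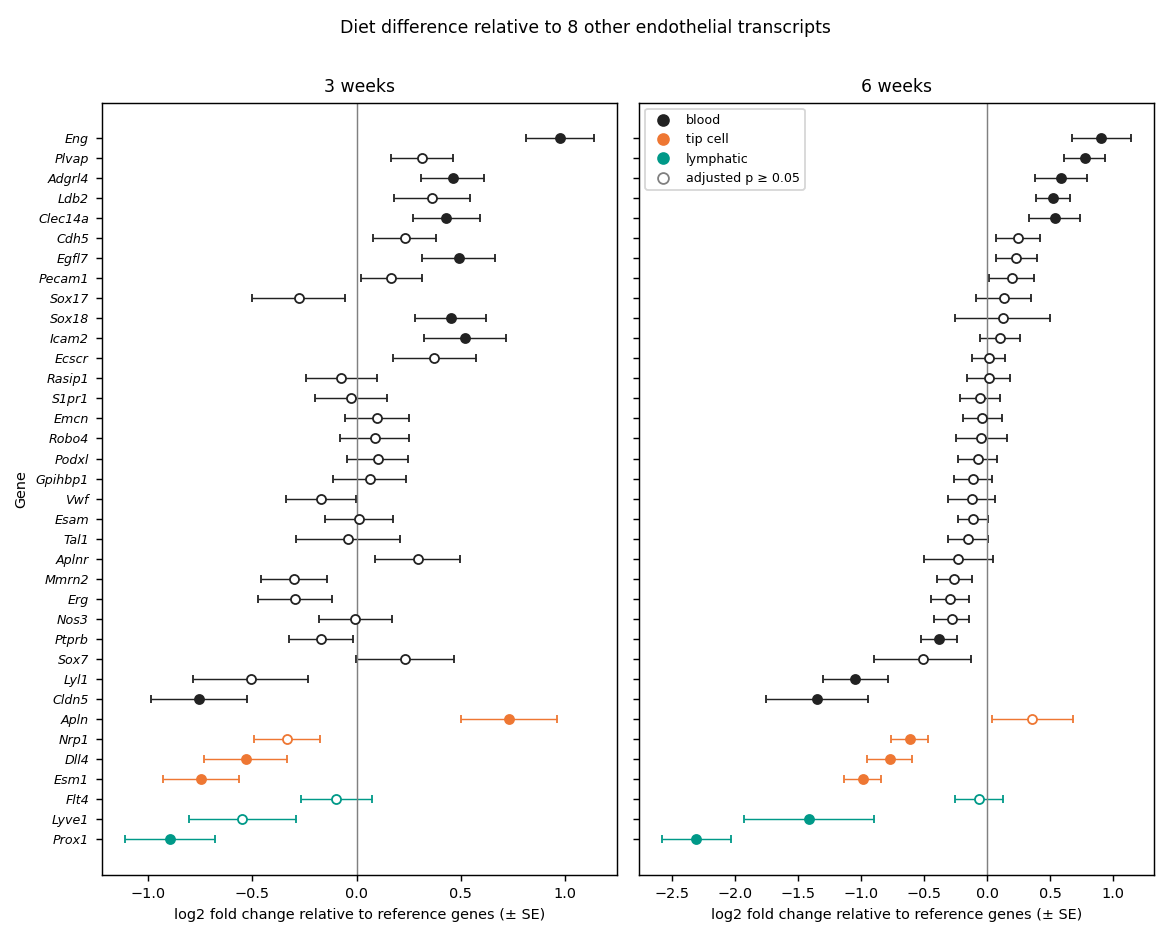
Log2 fold change, HF+SD over CD, relative to the summed counts of 8 other endothelial genes, with its SE, for the 36 members at 3 weeks (left) and 6 weeks (right), on axes of different range. Zero means a difference equal to that of the reference genes; Eng lies above it and Cldn5, Dll4, Esm1 and Prox1 below it at both times.

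Summed by class, the blood members took 579.3 to 819.9 CPM on the CD and 2013 to 2316 CPM on the HF+SD after 6 weeks, without overlap. The tip-cell members took 90.9 to 123.8 CPM and 179.5 to 195.0 CPM, also without overlap. The lymphatic members took 16.5 to 38.4 CPM and 26.1 to 41.6 CPM and overlapped. After 3 weeks the blood members took 926.3 to 1154 CPM and 1618 to 2370 CPM. Tip-cell members took 108.2 to 132.8 CPM against 128.0 to 154.3, and lymphatic members 23.5 to 33.3 CPM against 31.3 to 40.9, so that both sums overlapped. On the CD at 6 weeks M22 was highest in 20 members and M45 lowest in 17, and on the HF+SD M35 was highest in 21.

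**Figure D4:**
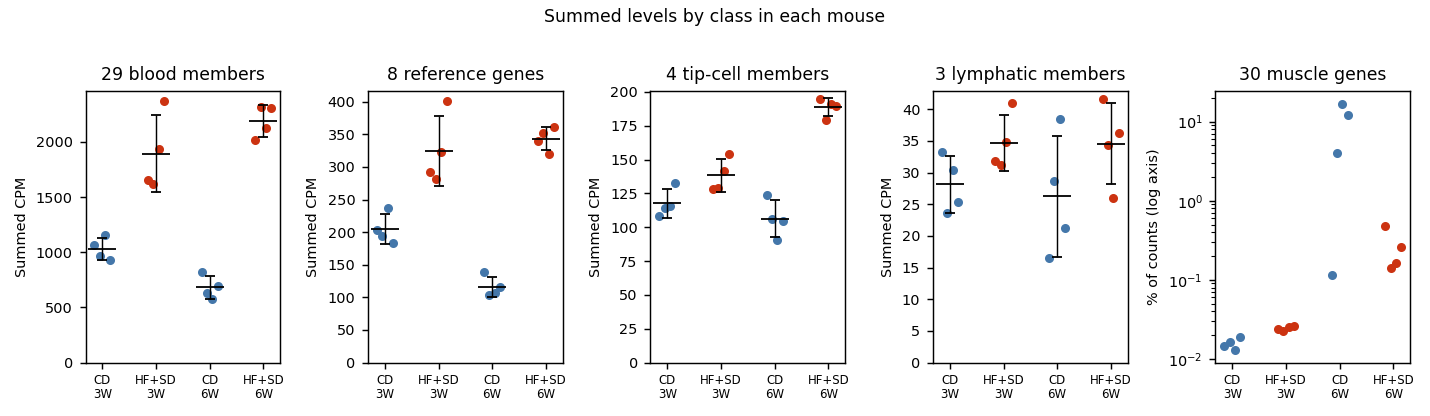
Summed CPM of the blood, reference, tip-cell and lymphatic genes in each mouse (points) with group mean and SD (lines), and the percent of counts in 30 muscle genes on a log axis, CD in blue and HF+SD in red. Blood and reference sums separate the diets at both times, tip-cell sums at 6 weeks, and lymphatic sums overlap; 3 CD mice of 6 weeks hold most of the muscle counts.

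Other endothelial genes, not members, were read in 5 lists. Their counts stand beside the shares of all genes, 12% higher and 9.55% lower at 6 weeks and 9.07% higher and 5.78% lower at 3 weeks. Of 12 other tip-cell genes, 9 were higher and 0 lower at 6 weeks, and 5 higher and 1 lower at 3 weeks. Angpt2, angiopoietin 2, was at 4.05, 3.89, 4.62 and 3.53 CPM on the CD and 23.2, 19.5, 26.1 and 20.2 CPM on the HF+SD after 6 weeks (5.49-fold, log2 fold change 2.46, SE 0.16, adjusted p = 0.000103). At 3 weeks it was 3.01-fold higher (log2 fold change 1.59, SE 0.22, adjusted p = 0.00164). Ramp3, a modulator of the adrenomedullin receptor, was 6.23-fold higher at 6 weeks (adjusted p = 0.000331) and 2.26-fold at 3 weeks (adjusted p = 0.00311). The study drew attention to Ramp3 in these libraries, so its direction is no independent evidence for the list. Kcne3, a potassium channel subunit, was 3.52-fold higher at 6 weeks, and Col4a2, a collagen of basement membranes, 1.75-fold at 3 weeks. Relative to the reference genes Angpt2 was at log2 0.89 at 6 weeks and 0.90 at 3 weeks (adjusted p = 0.00174 and 0.00299). Ramp3 was above the reference as well, but 5 of the 12 genes were below it at 6 weeks, Trp53i11 at log2 -1.95, Mcam at -0.91, Cxcr4 at -0.89, Pgf at -0.85 and Adm at -0.75, and the median of the list was -0.41. At 3 weeks 2 were above and 2 below, with a median of -0.07.

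Of 12 arterial and Notch genes, 6 were higher at 6 weeks and 5 at 3 weeks, with 0 lower. Hey1, a target of Notch, was at 13.4, 8.74, 6.98 and 7.54 CPM on the CD and 29.5, 43, 40.4 and 42.1 CPM on the HF+SD after 6 weeks (log2 fold change 2.07, SE 0.23, adjusted p = 0.000565), the receptor Notch4 3.78-fold higher and the semaphorin Sema3g 3.89-fold. At 3 weeks the receptor Notch1 was 2.37-fold, the Notch target Heyl 2.43-fold and Notch4 1.96-fold higher, all past the test. These stood beside the ligand Dll4, which was 1.7-fold higher at 6 weeks and 1.12-fold at 3 weeks. In 8 venous and activation genes, 0 passed at 6 weeks, the lowest adjusted p being 0.0589 for Ackr1, the chemokine receptor of venules. Selp and Ephb4, P-selectin and a venous ephrin receptor, had log2 fold changes of 0.72 and 0.65 there. Ackr1 passed at 3 weeks (2.19-fold, log2 fold change 1.13, SE 0.25, adjusted p = 0.0169), while Vcam1, an adhesion molecule of activated endothelium, had -0.60 and Ephb4 0.25 and did not pass.

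Capillary genes outside the members split in direction, 3 of 9 higher and 2 lower at 6 weeks and 3 higher and 3 lower at 3 weeks. Kdr, the VEGF receptor VEGFR2, was at 89.5, 68.4, 63.7 and 92.4 CPM on the CD and 278, 289, 289.7 and 338 CPM on the HF+SD after 6 weeks (3.78-fold, log2 fold change 1.92, SE 0.17, adjusted p = 0.000216) and 2.06-fold higher at 3 weeks. Car4, a carbonic anhydrase of capillaries, was 4.63-fold higher at 6 weeks and 2.26-fold at 3 weeks, and Nostrin, which binds NOS3, 3.66-fold at 6 weeks. Fabp4, a fatty acid-binding protein, was lower, at 1056, 1238, 699 and 1105 CPM on the CD and 279.6, 420.0, 289.6 and 518 CPM on the HF+SD after 6 weeks (log2 fold change -1.45, SE 0.26, adjusted p = 0.00622), and so it was at 3 weeks (log2 fold change -1.05, SE 0.20, adjusted p = 0.00846). Fabp4 is also a gene of adipocytes, and of 6 adipocyte genes 5 were lower at each time. Their summed level was 238.4 to 467.8 CPM on the CD and 119.2 to 216.7 CPM in the HF+SD mice of 6 weeks, and 304.3 to 375.1 and 104.5 to 217.7 at 3 weeks. The part of adipocytes in the Fabp4 difference was not tested.

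Of 12 other lymphatic genes, 1 was higher and 2 lower at 6 weeks, and 1 higher and 1 lower at 3 weeks, with median log2 fold changes of -0.088 and -0.22. These counts were near the shares of all genes, 12% higher and 9.55% lower at 6 weeks and 9.07% and 5.78% at 3 weeks. Itga9, an integrin of lymphatic valves, was higher at both times, 2.71-fold at 6 weeks (log2 fold change 1.44, SE 0.21, adjusted p = 0.00213) and 1.64-fold at 3 weeks (log2 fold change 0.71, SE 0.13, adjusted p = 0.00731). Tbx1, a T-box factor, was at 6.7, 4.78, 4.43 and 7.71 CPM on the CD and 2.42, 1.04, 0.986 and 1.48 CPM on the HF+SD after 6 weeks (log2 fold change -2.0, SE 0.33, adjusted p = 0.00379). Stab2, a hyaluronan receptor of sinusoidal and lymphatic endothelium, was at 0.718, 1.48, 4.91 and 3.33 CPM on the CD and 0.451, 0.535, 0.377 and 0.269 CPM on the HF+SD and thus low throughout (log2 fold change -2.68, SE 0.57, adjusted p = 0.0127). Its level on the CD was highest in M45 and M48, the libraries with most muscle counts, and the part of muscle tissue in it was not tested. At 3 weeks Stab2 was at 0.544, 0.511, 0.461 and 0.547 CPM on the CD and 0.348, 0.153, 0.181 and 0.486 CPM on the HF+SD and did not pass. Nrp2, a co-receptor for VEGF-C, was lower at 3 weeks (log2 fold change -0.45, SE 0.13, adjusted p = 0.0405).

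**Figure D5:**
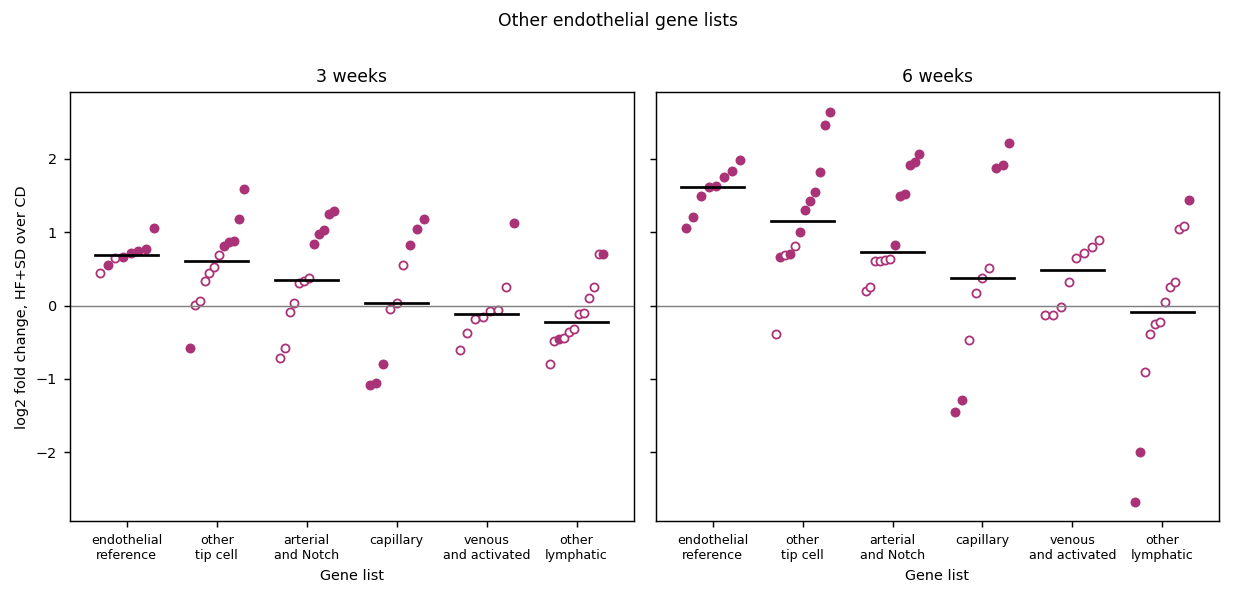
Log2 fold change, HF+SD over CD, of the 8 reference genes and of the genes of 5 other endothelial lists at 3 weeks (left) and 6 weeks (right); each point is a gene, filled where the adjusted p is under 0.05, and bars are list medians. Medians at 6 weeks fall from 1.62 for the reference genes and 1.15 for other tip-cell genes to -0.088 for other lymphatic genes.

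Lists of other cell types of the gland moved with the members in part. The shares of all genes beside them were 12% higher and 9.55% lower at 6 weeks, and 9.07% and 5.78% at 3 weeks. Of 10 pericyte and smooth muscle genes, 6 were higher at 6 weeks, with a summed level of 502.2 to 828.9 CPM on the CD and 1203 to 1324 CPM on the HF+SD, and 3 were higher at 3 weeks. All 8 mitotic genes were higher at each time, from 8.69 to 13.8 CPM on the CD to 68.4 to 111.8 CPM in the HF+SD mice at 6 weeks and from 4.61 to 13.1 to between 54.6 and 66.1 at 3 weeks. Which cells carried them was not tested. Of 7 fibroblast genes, 0 were higher and 1 lower at 6 weeks and 3 higher at 3 weeks, and of 8 leukocyte genes 1 was higher at 6 weeks and 0 at 3 weeks. Parathyroid genes, 3 in all, summed to 2166 to 14767 CPM on the CD and 458.9 to 1979 CPM in the HF+SD mice of 6 weeks, with 0 called by edgeR. No listed marker was at 0 in every library, but neither was any gene of the count table, where the smallest sum over 16 libraries was 28.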

How the data were processed

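Whole thyroids of 16 mice were sequenced, 1 library per mouse. Per the labels' processing notes, the tools were Trim Galore 0.6.7, STAR, DESeq2 1.36.0 and R 4.1.0 and the build mm39. What counted the reads, on which annotation, and how 21640 genes were kept is not given in the sources used here. The authors deposited raw counts per gene, the input of all tests, and a normalized signal (the counts of a library over its size factor), used for 1 alternative. Identifiers were matched without version to GENCODE M21 names, 20841 of 21640; nothing else was taken from that annotation.

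At each time point the diets were compared by edgeR 4.0.16 (R 4.3.3), with TMM factors, filterByExpr by diet and the quasi-likelihood test, and p-values were adjusted after Benjamini-Hochberg over every gene tested. The SE is the absolute log2 fold change divided by the square root of F. Exact permutation tests used log2 CPM with a prior count of 2 (70 assignments, smallest two-sided p 0.0286). For the reference scale, the summed counts of 8 genes replaced the library sizes. The scripts were tested on simulated data. The study's legend states 3 mice for the CD at 6 weeks without naming them, so all 4 were used and each left out in turn. The labels do not say which mice shared a cage, and p-values measure the spread between mice. Depth was 30025256 to 48508653 counts, and the chi-square of counts between mice of a group was 15.1 to 871 per gene, above counting error.

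The members and gene lists were chosen with earlier results of these data known. All 36 members are accounted for. Per-mouse values are given for the members that passed, for Pecam1, Cdh5, Plvap, Emcn, Vwf, Nos3, Erg and the SoxF genes, and for all tip-cell and lymphatic members. Of each other endothelial list, the 3 genes of lowest adjusted p at each time are named. The promoter shown is that of the member with the largest difference at 6 weeks in each class. Alternatives were DESeq2 1.42.0, RLE and upper-quartile factors, scaling to 9 thyrocyte genes, no filter or a filter of 10 counts in each library, limma 3.58.1 on log2 of the deposited signal plus 1, 1 fit of all 16 libraries, a muscle score as covariate, muscle genes left out, a log2 fold change above 1, and 5 members as reference. Leaving out the 3 muscle-rich CD libraries was added after seeing the data.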

Additional observations from a re-analysis of the deposited data

Results flagged for a closer look

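Levels within each group of 4 mice were examined on log2 CPM, and values are printed in CPM. A level was marked where the gap from the highest or lowest mouse to the next exceeded Dixon's 95% limit, as a share of the range. Of 144 groups of member levels 10 were marked, where chance gives about 7.2. At 6 weeks on the CD, Cldn5 was 1.55 CPM in M22 and 3.73 to 4.23 in the others. At 6 weeks on the HF+SD, M35 stood above the rest for Robo4 (39.6 CPM), Egfl7 (147.2 CPM), Sox7 (10.2 CPM) and Flt4 (17.7 CPM), and M18 for Ldb2 (37.5 CPM). At 3 weeks on the CD, M53 stood apart for Cldn5 (6.23 CPM) and M55 for Rasip1 (15.8 CPM). At 3 weeks on the HF+SD, M31 stood apart for Ptprb (150.0 CPM) and Aplnr (24.4 CPM).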

How the results depend on the processing

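Of the 9 thyrocyte genes used for scaling, 4 were themselves higher on the HF+SD at 6 weeks, against 12% of all genes. Scaled to these 9 genes, the median of all genes moved to -0.97 at 6 weeks and -0.37 at 3 weeks. That of the members moved to 0.53 and 0.33. Then 13 members were higher and 1, Prox1, lower at 6 weeks, and at 3 weeks 15 were higher and 2, Esm1 and Prox1, lower. With the median of all genes below 0 here, a lower call need not be particular to a member. The shares of all genes called on this scale were not determined. Reversed there at 6 weeks were Cldn5 (-0.75), Lyl1 (-0.49), Esm1 (-0.36), Dll4 (-0.17), Nrp1 (-0.015) and Lyve1 (-0.87), and at 3 weeks Lyl1 (-0.19), Dll4 (-0.20), Nrp1 (-0.032) and Lyve1 (-0.29). With the muscle score as covariate, 15 members were higher at 3 weeks, Lyl1 turned to -0.15, and 0 were lower at 6 weeks. At 3 weeks the muscle share did not overlap between the diets, so this covariate is partly confounded with diet there. The count lower at 6 weeks was also 0 with a log2 fold change above 1, a rule that left 10 higher at 3 weeks. In the interaction DESeq2 called 18 members and RLE factors 2. The cause of these shifts was not tested. DESeq2, RLE and upper-quartile factors, limma, both filters and leaving out muscle genes kept the members' counts of higher calls at 30 to 32 at 6 weeks and 24 to 27 at 3 weeks. With 1 fit of all 16 libraries 31 and 22 were higher, Vwf, Rasip1, Sox7 and Sox18 no longer passing at 3 weeks. With 5 members as reference, 15 and 10 of the other 31 were called at 6 and 3 weeks, in place of 13 and 11 of 36.

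The shares of all genes called with 1 mouse left out were not determined. Leaving out 1 mouse in turn gave 28 to 31 members higher and 0 to 1 lower at 6 weeks, and 17 to 26 higher and 0 lower at 3 weeks. Called relative to the reference genes were 9 to 14 and 6 to 12 at 6 and 3 weeks, and in the interaction 0 to 19. Log2 fold changes then ran from -0.056 to 0.42 for Cldn5 and from -0.052 to 0.78 for Lyve1 at 6 weeks, and from -0.17 to 0.072 for Cldn5, -0.15 to 0.016 for Esm1 and -0.062 to 0.39 for Lyve1 at 3 weeks, none of them called. No paired analysis was possible because the labels give the mice no number shared between diets. The fewest counts of a member in a library were 35, for Apln, so that counting error adds most there.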
